A study of Mus musculus with 8 samples.

Results

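The genes described here are 39 genes of oxidant defence and glutathione use, chosen by symbol from a table of 48440 entries: the Nrf2 axis, superoxide dismutases, catalase, glutathione peroxidases, peroxiredoxins, thioredoxins, glutaredoxins, the enzymes of glutathione synthesis and recycling, glutathione transferases, a quinone reductase and the heme oxygenases. All 39 symbols were found in the table. The filter on low counts passed 37 of them, among 13771 genes tested, and the other 2, Sod3 and Slc7a11, are given as counts.

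RNA was measured in purified cardiomyocytes, the contracting muscle cells of the heart, from pups of the mouse strain C57BL6/J, at postnatal day 2. With a male heart and a female heart from each litter, the 8 libraries form 4 males and 4 females in 4 litter pairs, and no genotype or treatment other than the strain is labelled. The litters are numbered by the labels, and whatever a litter shared (dam, day of collection, cell purification, RNA handling) cannot be told apart from the litter itself. The method of purification is not given in the sources used here.

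Superoxide dismutases turn superoxide into hydrogen peroxide, which catalase, glutathione peroxidases and peroxiredoxins then remove. Glutathione and thioredoxin supply the electrons for most of these reactions and are themselves kept reduced by enzymes that use NADPH. Nrf2 (gene Nfe2l2) is a transcription factor that Keap1 holds at a low level until oxidants or electrophiles modify Keap1, and its targets include many of the genes above. Cardiomyocytes hold many mitochondria, and the heart passes from a low to a high oxygen supply at birth.

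Libraries held 14226342 to 24910243 counts, with the fewest in the female of litter 3, and mitochondrial genome genes took 13.4% to 18.5% of them, most in the male of litter 4. The 39 genes took 0.381% to 0.401% of the counts of a library. Levels below are in CPM, the counts of a gene over the total of the tested genes in its library, scaled by TMM, a correction for differences in composition between libraries. All 14 cardiomyocyte markers were detected, at a summed 81532 to 108629 CPM. The summed level was 45.4 to 285 CPM for 11 fibroblast markers, 23.5 to 209 CPM for 11 endothelial and 905 to 1534 CPM for 9 mural markers. It was 15.4 to 24.8 CPM for 8 epicardial markers and 28.9 to 34.1 CPM for 7 Schwann and neural markers. Macrophage markers summed to 5.83 to 10.2 CPM with Fcgr1 and Cd163 at 0 in all 8 libraries, and neutrophil markers to at most 0.208 CPM with Ly6g, Retnlg and Camp at 0. Erythroid markers summed to 98.9 to 248 CPM in 7 libraries and to 535 CPM in the male of litter 3. In bulk RNA, fewer cells of a type and less RNA per cell cannot be told apart.

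Genes of these lists moved in all 4 litters. Of 18 immediate-early genes, which rise within minutes of handling or stress, 13 were higher and 1 was lower in litter 3 than in the other litters, and their summed level was 1816 CPM in its male and 1713 CPM in its female against 608 to 899 CPM in the 6 other libraries. In litter 3, 7 of 14 cardiomyocyte markers, 9 of 11 fibroblast markers, 8 of 11 endothelial markers (median log2 -1.45) and 5 of 9 mural markers were lower, and none of these was higher. Of 7 tested erythroid markers, 3 were higher in litter 3 and none was lower. Of 10 atrial genes 3 were higher and 1 was lower, and of 7 tested epicardial markers 1 was higher and 2 were lower. The summed cardiomyocyte level there was 82457 and 81532 CPM against 96024 to 108629 CPM elsewhere. The summed level of 10 genes of atrial cardiomyocytes in litter 3 was 1428 CPM (male) and 1722 CPM (female), against 304 to 957 CPM elsewhere. In litter 2, 11 of 11 endothelial markers (median log2 2.13), 9 of 11 fibroblast markers and 4 of 9 mural markers were higher, and 10 of 18 immediate-early genes were lower. In litter 4, 7 of 11 fibroblast markers and 7 of 14 cardiomyocyte markers were higher, and 2 cardiomyocyte markers were lower. Of 9 mural markers, 3 were higher and 1 was lower there. In litter 1, 8 of 18 immediate-early genes and 3 of 10 atrial genes were lower. There, 5 of 14 cardiomyocyte and 3 of 11 fibroblast markers were higher, while 1 mural marker was higher and 2 were lower. The part of handling or cell makeup in the results was not tested. The litter test is given with and without litter 3, which leaves the shifts in the other litters in place.

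The 39 genes spanned a wide range of levels, and the peroxide-removing enzymes led. Compared per length, as CPM per kilobase of exon, the highest levels were those of Mgst3, a microsomal glutathione transferase and peroxidase, of Prdx2, a cytosolic peroxiredoxin, and of Prdx3, the mitochondrial peroxiredoxin. Next came Gpx4, the peroxidase that acts on lipid peroxides within membranes, and Prdx5, a peroxiredoxin of several compartments. The lowest were Slc7a11, the cystine importer, Sod3, the secreted superoxide dismutase, and Hmox1, the inducible heme oxygenase.

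Mgst3 had 142 ± 13.2 CPM per kilobase (SD, n = 8), Prdx2 had 135 ± 11.5, Prdx3 had 116 ± 5.63, Gpx4 had 107 ± 10.3 and Prdx5 had 88.9 ± 6.04. Mgst3 and Prdx2 differed by less than the SD of either gene, as did Prdx3 and Gpx4 by less than that of Gpx4. With the longest transcript of each gene as its length in place of all exons, the order changed to Prdx2 at 255, Gpx4 at 186, Mgst3 at 142 and Prdx3 at 116 CPM per kilobase, so the rank among these genes depends on the length used.

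In CPM itself, Mgst3 had 147 in both animals of litter 1, 144 in the male and 137 in its sister in litter 2, 162 and 176 in litter 3 and 174 and 155 in litter 4. Prdx2 had 399 and 434 CPM in the male and the female of litter 1, 385 and 384 in litter 2, 375 and 395 in litter 3 and 448 and 471 in litter 4, and in all such sentences below the male comes first. Prdx3 had 173 and 187 CPM in litter 1, 163 and 161 in litter 2, 174 and 175 in litter 3 and 173 and 165 in litter 4. Prdx3 thus kept within a narrow band, and its litter test did not pass (log2 range over litters 0.15, adjusted p = 0.334 by edgeR's quasi-likelihood test).

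At the other end, Slc7a11 had 2 counts in the male of litter 2, 1 in its female, 1 in the male of litter 3 and 0 in the other 5 libraries. Sod3 had 2 and 2 counts in litter 1, 8 and 6 in litter 2, 1 and 0 in litter 3 and 0 and 4 in litter 4. Neither gene passed the filter on low counts, and with no filter neither passed the litter test (adjusted p = 0.334 for Sod3 and 0.900 for Slc7a11 by edgeR's quasi-likelihood test). Hmox1 had 2.01 and 1.65 CPM in litter 1, 1.87 and 1.84 in litter 2, 1.87 and 2.48 in litter 3 and 1.62 and 1.55 in litter 4, from 29 to 50 counts a library, which leaves a wide counting error. Within gene pairs, Gclc and Gclm, the catalytic and the modifier subunit of the enzyme that limits glutathione synthesis, had 3.44 ± 0.347 and 3.77 ± 0.478 CPM per kilobase (SD, n = 8), and Gss, which completes glutathione, had 3.82 ± 0.271. Hmox2, the constitutive heme oxygenase, had 24.7 ± 1.53 CPM per kilobase against 1.06 ± 0.167 for Hmox1, but 40.2% of its exon bases overlap Cdip1 on the opposite strand, and whether counting used the strand is not given in the sources used here.

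**Figure D1:**
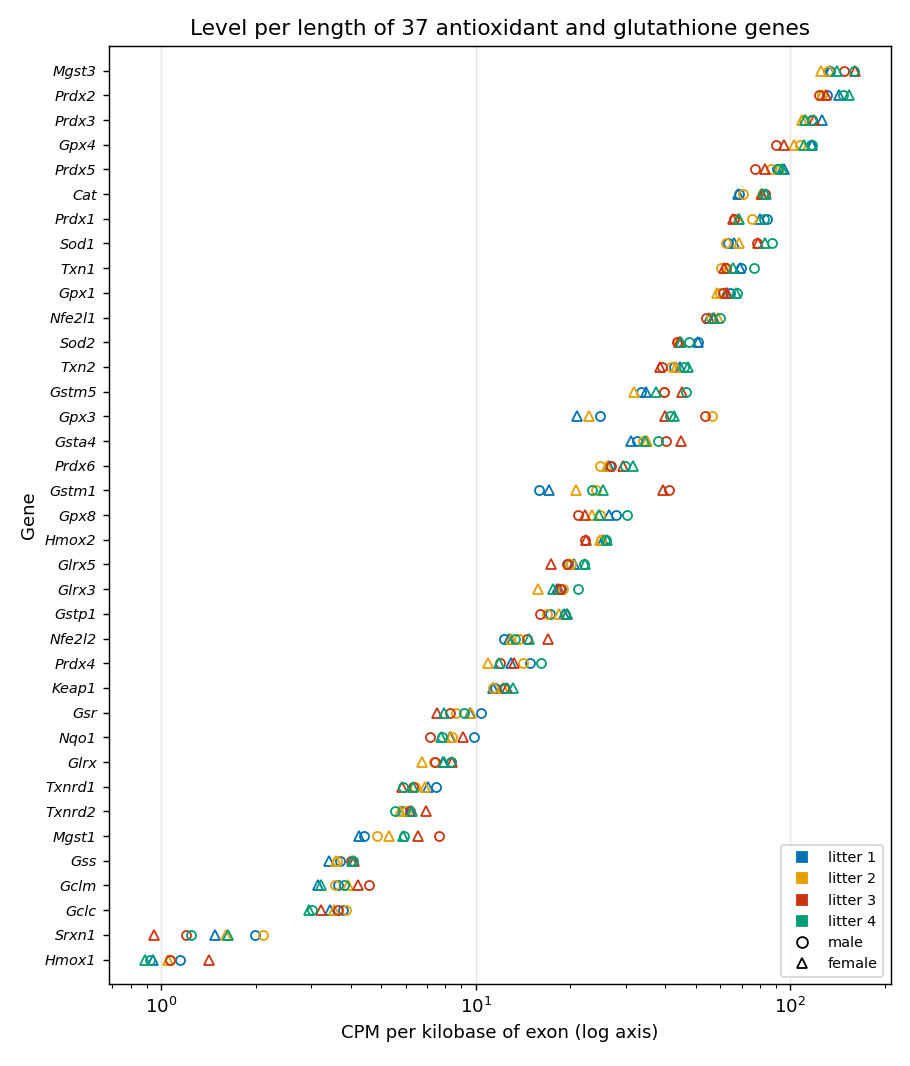
Level per length of the 37 tested genes in each of the 8 libraries, as CPM per kilobase of exon on a log axis, with genes ordered by their mean; colours are litters, circles males and triangles females. Points run from 1.06 CPM per kilobase on average for Hmox1 to 142 for Mgst3, and Gstm1 and Gpx3 are the genes near the middle whose points spread most.

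Litter was the larger labelled difference for these genes. The litter test, edgeR's quasi-likelihood F test of the 3 litter coefficients together beside sex, called 12 of the 37 tested genes at an adjusted p under 0.05, or 32.4%. It called 32.1% of all 13771 tested genes, so the share among these genes was close to the background. The glutathione transferases held 4 of the 12, the peroxiredoxins 3, superoxide dismutases with catalase 2, the glutathione peroxidases 2 and the thioredoxins 1. The median log2 range over litters was 0.26 for the 37 genes against 0.37 for all tested genes. The coefficient of variation over the 8 libraries was 3.41% for Nfe2l1, the steadiest of the 37, and 36.4% for Gstm1, the most variable.

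Setting each litter against the mean of the other 3 gave 4 comparisons, which share libraries. Litter 1 was higher for 2 of these genes and lower for 5, beside 7.86% and 5.41% of all tested genes. Litter 2 was higher or lower for none of them, beside 3.3% and 0.879% of all genes, and 6 of the 37 had an unadjusted p under 0.05 there, as did 2466 of all 13771 genes, a similar share. Litter 3 was higher for 5 and lower for 7, beside 13.6% and 14.8%. Litter 4 was higher for 3 and lower for none, beside 4.71% and 5.8%.

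By role, in litter 3, 3 of 6 glutathione transferases were higher and none was lower, while 3 of 7 peroxiredoxins and sulfiredoxin and 2 of 4 glutathione peroxidases were lower and none was higher. Scaling by library size alone moved the litter 3 split from 5 higher and 7 lower to 8 higher and 2 lower, and that of litter 4 from 3 higher and none lower to 1 higher and 1 lower. In litter 3 it left Gpx4 lower and Gpx3 higher among the peroxidases (log2 0.52, adjusted p = 0.0415 by edgeR's quasi-likelihood test). Among peroxiredoxins and sulfiredoxin it left Srxn1 as the lower call, so the split by role depends on the scaling as well. Library size alone also called Sod1 and Mgst3 higher in litter 3 and Gclc lower in litter 4. It shifted the median of all genes by 0.04 in litter 3 and by -0.08 in litter 4 on the log2 scale, and DESeq2's size factors gave 5 and 7 in litter 3 and 2 and 0 in litter 4. Small differences of either sign in these litters therefore depend on the scaling.

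**Figure D2:**
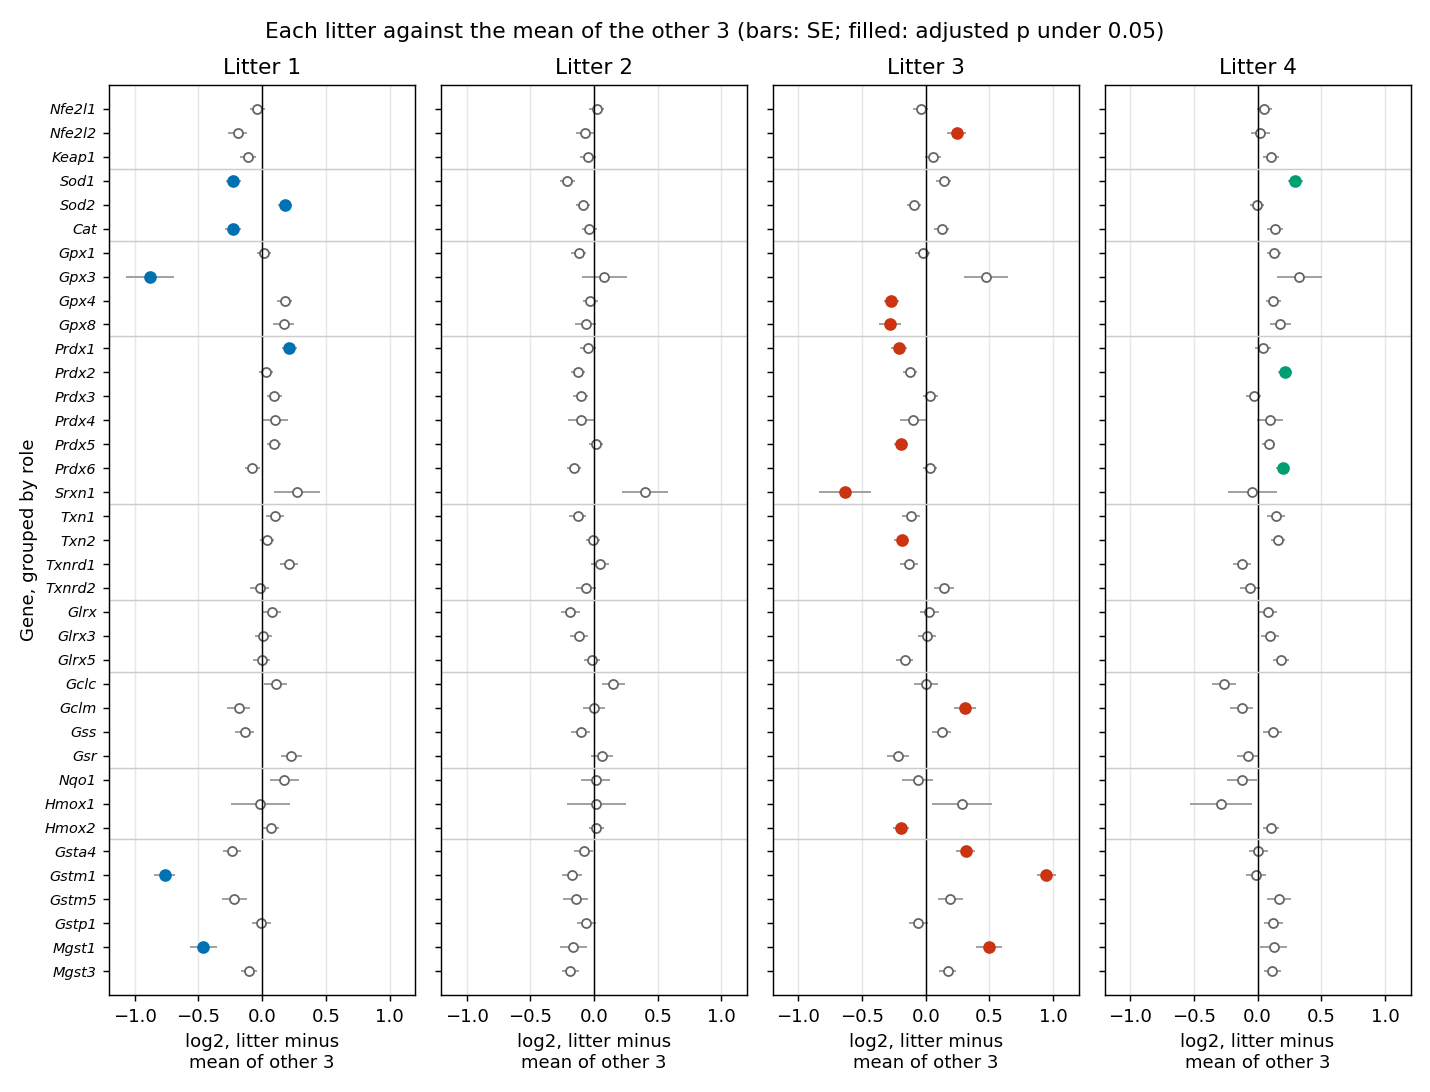
Log2 difference of each litter from the mean of the other 3 for the 37 tested genes, grouped by role; bars are SE and filled points have an adjusted p under 0.05. Gstm1 is the point farthest from 0 in litter 3, at 0.95, and Gpx3 that in litter 1, at -0.88, while litter 2 has no filled point.

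Glutathione transferases attach glutathione to electrophiles, and 4 of the 6 passed the litter test. Gstm1, Mgst1, Gsta4 and Mgst3 differed between litters, with the highest mean in litter 3 for each, and Gstm5 and Gstp1 did not pass. Gstm1 (chr3:108012255-108017973, minus strand), a cytosolic transferase of the mu class, had 23.4 and 25.2 CPM in litter 1, 35.6 and 30.7 in litter 2, 60.4 and 58.1 in litter 3 and 34.6 and 37.4 in litter 4. Both animals of litter 3 were above the other 6 and both animals of litter 1 below them, with no overlap. Litter 3 was 1.93-fold higher than the mean of the others (log2 0.95, SE 0.07, adjusted p = 5.38e-06 by edgeR's quasi-likelihood test) and litter 1 was at 0.588 of it (log2 -0.77, SE 0.08, adjusted p = 0.000154). The litter call of Gstm1 held without each library in turn and without litter 3, where its log2 range over litters fell from 1.28 to 0.57 (adjusted p = 0.00675). Of the 100-base windows of its transcript, 7.73% also occur in 3 other genes.

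Mgst1 (chr6:138140316-138156755), a microsomal transferase, had 8.91 and 8.56 CPM in litter 1, 9.77 and 10.7 in litter 2, 15.4 and 13.2 in litter 3 and 11.9 and 11.8 in litter 4. It showed the order of Gstm1, with litter 1 below and litter 3 above all other libraries. Litter 3 was 1.41-fold higher (log2 0.49, SE 0.10, adjusted p = 0.00458) and litter 1 was lower (log2 -0.46, SE 0.11, adjusted p = 0.0164, both by edgeR's quasi-likelihood test). Without litter 3 the adjusted p of its litter test was 0.0884, and without the male of litter 3 that of litter 3 against the others was 0.126. Without the male or the female of litter 1 that difference stayed of similar size (log2 -0.47 and -0.45), but the call was lost (adjusted p = 0.170 and 0.196).

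Gsta4 (chr9:78182774-78209349), which conjugates the lipid peroxidation product 4-hydroxynonenal, had 41.4 and 39.3 CPM in litter 1, 43.2 and 44.3 in litter 2, 50.8 and 56.8 in litter 3 and 48.0 and 43.7 in litter 4. Litter 3 lay above the other 6 libraries and was 1.24-fold higher (log2 0.31, SE 0.07, adjusted p = 0.00753 by edgeR's quasi-likelihood test), a call lost without its female (log2 0.20, adjusted p = 0.192). Mgst3 (chr1:167371966-167393841, minus strand), whose values stand above, passed the litter test at an adjusted p of 0.04997 and no comparison of a single litter, with litters 3 and 4 overlapping. It kept the call in 2 of the 8 fits without a library. Under library size alone Mgst3 was called higher in litter 3 (log2 0.22, adjusted p = 0.0226 by edgeR's quasi-likelihood test). Gstm5 ran from 40.7 to 59.7 CPM with a litter adjusted p of 0.108, and Gstp1 from 24.9 to 30.3 CPM with 0.529, though 52.8% of the windows of Gstp1 also occur in Gstp2.

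Of 20 other glutathione transferases in a list chosen beside the 39 genes, 11 were tested and 3 passed the litter test, a smaller share than the 32.1% of all genes. Those 3 were higher in litter 3, as were 13.6% of all genes. Gstm2 had 30.7 and 34.0 CPM in litter 3 against 16.6 to 20.1 elsewhere (log2 0.82, SE 0.07, adjusted p = 1.63e-05). Gstm7 had 27.0 and 26.6 against 15.5 to 19.4 (log2 0.62, SE 0.08, adjusted p = 0.00015). Gsto1 had 75.8 and 84.1 against 54.5 to 62.4 (log2 0.45, SE 0.06, adjusted p = 0.000332, all by edgeR's quasi-likelihood test). Gstm1, Gstm2, Gstm5 and Gstm7 are genes of the mu class, so their sequences are related. In litter 3, where these transferases were higher, the immediate-early sum was also higher and the fibroblast, endothelial and mural markers were lower, as given above. There, 3 of 7 tested erythroid markers were higher, and atrial and epicardial genes moved both ways.

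**Figure D3:**
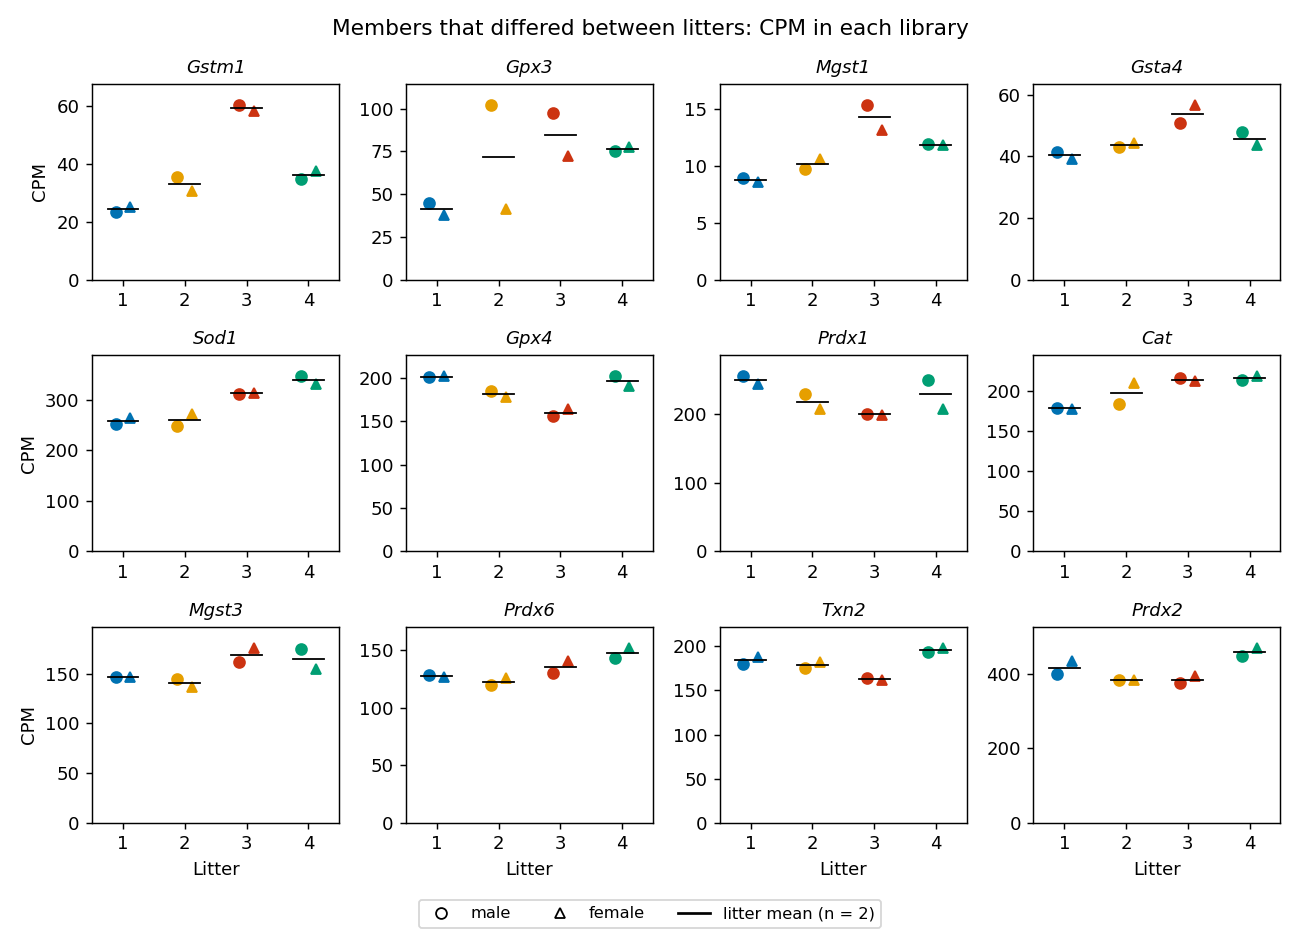
CPM of the 12 genes past 0.05 in the litter test, by litter, with circles for males, triangles for females and a line for the litter mean (n = 2); each axis starts at 0. Littermates lie close together for Gstm1 and Sod1, while for Gpx3 the male of litter 2 at 102 CPM is far from its sister at 41.5.

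In the Nrf2 axis only Nfe2l2 passed a comparison of a litter with the others, and none of the 3 genes passed the litter test. Nfe2l2 (chr2:75675513-75704641, minus strand) had 46.8 and 48.5 CPM in litter 1, 52.2 and 49.2 in litter 2, 55.2 and 64.6 in litter 3 and 50.5 and 56.1 in litter 4. The male of litter 3 overlapped the other litters and the female was the highest library. Litter 3 was 1.18-fold higher (log2 0.24, SE 0.07, adjusted p = 0.0260 by edgeR's quasi-likelihood test), and the call was lost without that female (log2 0.15, adjusted p = 0.385) or the female of litter 1 (0.0626). Nfe2l1, the related factor that drives proteasome genes, ran from 293 to 325 CPM and Keap1 from 53.1 to 61.7 CPM, with litter adjusted p-values of 0.761 and 0.297, against 0.0577 for Nfe2l2.

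Among genes widely used as readouts of Nrf2, Gclm was higher and Srxn1 lower in litter 3, though neither passed the litter test (adjusted p = 0.0618 and 0.0793 by edgeR's quasi-likelihood test). Gclm (chr3:122245557-122270732) had 23.0 and 19.9 CPM in litter 1, 22.5 and 24.6 in litter 2, 28.8 and 26.5 in litter 3 and 24.1 and 20.2 in litter 4, and both animals of litter 3 were above the other 6. It was 1.24-fold higher there (log2 0.31, SE 0.09, adjusted p = 0.0211 by edgeR's quasi-likelihood test), a call lost without either animal of litter 3 or the female of litter 1, at an adjusted p of up to 0.140.

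Srxn1 (chr2:152105516-152111376), sulfiredoxin, which repairs over-oxidised peroxiredoxins, had 5.62 and 4.20 CPM in litter 1, 5.95 and 4.54 in litter 2, 3.38 and 2.68 in litter 3 and 3.52 and 4.62 in litter 4. Both animals of litter 3 were below the other 6, the male of litter 4 only narrowly above them, and the fold was 0.644 (log2 -0.64, SE 0.20, adjusted p = 0.0351 by edgeR's quasi-likelihood test). These values rest on 39 to 143 counts, and the call was lost in 5 of 8 fits without a library, at an adjusted p of up to 0.197. Nqo1, a quinone reductase, ran from 11.1 to 15.3 CPM with a litter adjusted p of 0.538. Hmox1 had 0.640, Gclc 0.151, Txnrd1 0.0922 and Gsr 0.0959, and none of these 5 passed a comparison of a single litter either. Under library size alone, Gclc was called lower in litter 4 (log2 -0.34, adjusted p = 0.0389 by edgeR's quasi-likelihood test).

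Because several of these genes are taken as targets of Nrf2, the 250 bases before their RefSeq starts (GRCm38.p6) were searched for TGACNNNGC, the core letters of the antioxidant response element, on both strands. RefSeq starts were found for 33 of the 39 genes, and 7 of the 33 held a match (21.2%). Sod3, Prdx6, Gclc, Gsr, Hmox1 and Gsta4 had no start there and were not searched, nor were bases beyond the 250. This compares with 3112 of 27025 genes with a start in the same table (11.5%). Counted by start, it was 7 of 47 (14.9%) against 3338 of 32851 (10.2%). The 7 were Gclm, Gstm5, Mgst1, Nfe2l2, Prdx1, Sod1 and Txnrd1. The sequences of the 5 of them that a litter comparison called are shown so that the match can be seen in place, with the matching 9 bases in capitals. The match of Nfe2l2 is on the strand of the gene and begins at base -240 from its start (chr2:75704664-75704913, minus strand). The other 4 are on the opposite strand and so read GCNNNGTCA, and they begin at base -134 for Gclm (chr3:122245307-122245556, plus strand), -56 for Mgst1 (chr6:138140277-138140526, plus strand), -133 for Prdx1 (chr4:116685349-116685598, plus strand) and -56 for Sod1 (chr16:90220512-90220761, plus strand).
Gclm: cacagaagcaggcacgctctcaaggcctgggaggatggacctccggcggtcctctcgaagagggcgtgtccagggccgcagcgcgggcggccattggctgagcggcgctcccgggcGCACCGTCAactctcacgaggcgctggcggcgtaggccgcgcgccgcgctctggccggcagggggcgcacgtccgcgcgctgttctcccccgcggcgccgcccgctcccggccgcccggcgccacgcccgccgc
Mgst1: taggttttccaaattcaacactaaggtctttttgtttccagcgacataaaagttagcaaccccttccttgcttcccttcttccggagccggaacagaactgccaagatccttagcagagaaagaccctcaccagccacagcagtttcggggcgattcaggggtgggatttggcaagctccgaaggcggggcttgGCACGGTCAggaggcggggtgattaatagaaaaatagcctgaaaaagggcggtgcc
Nfe2l2: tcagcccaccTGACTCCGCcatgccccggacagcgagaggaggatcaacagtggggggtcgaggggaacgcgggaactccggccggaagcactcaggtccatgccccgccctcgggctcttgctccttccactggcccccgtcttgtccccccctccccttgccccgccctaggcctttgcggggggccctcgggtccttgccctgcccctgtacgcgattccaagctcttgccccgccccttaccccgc
Prdx1: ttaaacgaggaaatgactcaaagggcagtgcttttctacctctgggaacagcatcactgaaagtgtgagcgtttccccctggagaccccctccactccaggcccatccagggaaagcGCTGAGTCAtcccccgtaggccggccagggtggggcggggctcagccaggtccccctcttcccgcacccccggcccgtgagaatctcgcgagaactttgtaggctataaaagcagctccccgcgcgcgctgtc
Sod1: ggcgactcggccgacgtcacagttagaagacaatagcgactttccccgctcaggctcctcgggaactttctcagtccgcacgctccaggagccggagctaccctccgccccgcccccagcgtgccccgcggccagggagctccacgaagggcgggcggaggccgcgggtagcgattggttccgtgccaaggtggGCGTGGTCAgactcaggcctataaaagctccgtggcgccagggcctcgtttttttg
In Prdx1 the match, read on the other strand as TGACTCAGC, also holds the AP-1 letters TGACTCA. Gstm1, which differed most between litters, had 2 starts in the table and no match before either. A match describes letters and shows no binding. Of the 5 genes, litter 3 was higher for Gclm, Mgst1 and Nfe2l2 and lower for Prdx1, and Sod1 was higher in litter 4. Scaling by library size alone ended the Prdx1 call in litter 3 (adjusted p = 0.0573 by edgeR's quasi-likelihood test). It called Sod1 higher there (log2 0.19, adjusted p = 0.0288 by the same test). The part of Nrf2 in these differences was not tested.

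Superoxide dismutases and catalase showed 3 different litter patterns. Sod1 (chr16:90220754-90226329), the cytosolic copper and zinc enzyme, had 252 and 264 CPM in litter 1, 249 and 272 in litter 2, 312 and 314 in litter 3 and 347 and 331 in litter 4. Both animals of litters 3 and 4 were above both of litters 1 and 2, and litter 4 was above all others. Litter 4 was 1.23-fold higher than the other litters (log2 0.30, SE 0.06, adjusted p = 0.00976) and litter 1 was at 0.854 (log2 -0.23, SE 0.06, adjusted p = 0.0255, both by edgeR's quasi-likelihood test). The litter call of Sod1 held without each library in turn, and without litter 3 (adjusted p = 0.00577). The litter 4 call was lost without the male of that litter (adjusted p = 0.119), and the litter 1 call without either animal of litter 1 or the female of litter 2, at up to 0.298. In litter 4, where Sod1 was highest, 7 of 11 fibroblast markers were higher, cardiomyocyte markers moved both ways (7 of 14 higher and 2 lower) and the male had the largest mitochondrial share.

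Sod2 (chr17:13006846-13040063), the mitochondrial manganese enzyme, had 508 and 510 CPM in litter 1, 442 and 447 in litter 2, 438 and 444 in litter 3 and 478 and 449 in litter 4. Litter 1 was above the other 6 libraries, by 1.13-fold (log2 0.18, SE 0.05, adjusted p = 0.0481 by edgeR's quasi-likelihood test), a call that 7 of the 8 fits without a library lost, at an adjusted p of up to 0.410. Sod2 did not pass the litter test (adjusted p = 0.0816 by edgeR's quasi-likelihood test). Cat (chr2:103453849-103485160, minus strand), catalase of the peroxisome, had 180 and 178 CPM in litter 1, 185 and 211 in litter 2, 217 and 212 in litter 3 and 214 and 219 in litter 4. Litter 1 lay below the rest at 0.854 of their mean (log2 -0.23, SE 0.06, adjusted p = 0.0313), and 4 of the 8 fits without a library lost this call, at an adjusted p of up to 0.395. Sod1 and Cat were thus lower in litter 1, and Sod2 was higher. The marker and immediate-early genes that moved in litter 1 are given above.

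Glutathione peroxidases were lower in different litters. Gpx4 and Gpx8, an enzyme of the endoplasmic reticulum, were lower in litter 3, and Gpx3, the secreted plasma form, was lower in litter 1. Gpx1, the main cytosolic form, ran from 84.2 to 97.5 CPM with a litter adjusted p of 0.204. Gpx3 (chr11:54902453-54910377) had 45.0 and 38.0 CPM in litter 1, 102 and 41.5 in litter 2, 97.3 and 72.3 in litter 3 and 75.4 and 77.7 in litter 4. The female of litter 2 overlapped litter 1, and the other 5 libraries outside litter 1 lay between 72.3 and 102 CPM. Litter 1 was at 0.543 of the others (log2 -0.88, SE 0.19, adjusted p = 0.00981 by edgeR's quasi-likelihood test). Without the male of litter 1 the adjusted p of the litter test was 0.130, and it was 0.197 by DESeq2; without that male litter 1 against the others had 0.171. The summed level of 10 atrial genes was 467 and 377 CPM in litter 1, 957 and 304 in litter 2, 1428 and 1722 in litter 3 and 505 and 489 in litter 4. Between the 2 animals of a litter, the atrial sum and Gpx3 went the same way in litters 1 and 2 and opposite ways in litters 3 and 4. The part of atrial tissue in Gpx3 was not tested.

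Gpx4 (chr10:80047166-80056439) had 201 and 202 CPM in litter 1, 185 and 178 in litter 2, 156 and 164 in litter 3 and 202 and 191 in litter 4. Both animals of litter 3 were below the other 6 (log2 -0.27, SE 0.06, adjusted p = 0.00539 by edgeR's quasi-likelihood test), and 48.4% of its windows also occur in the pseudogene Gpx4-ps2. The call was lost without the male of litter 3 (adjusted p = 0.108). Gpx8 had 22.1 and 23.4 CPM in litter 3 against 24.6 to 31.8 elsewhere (log2 -0.28, SE 0.09, adjusted p = 0.0298), and 4 of 8 fits without a library lost the call, at up to 0.396 without the male of litter 3 (log2 -0.16), as did scaling by library size alone (0.0523). The adjusted p of its litter test was 0.0547. Fibroblast markers, at 66.6 and 45.4 CPM in litter 3 against 132 to 285 elsewhere, moved the same way as Gpx8, and their part was not tested.

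Peroxiredoxins reduce peroxides through a reactive cysteine. Prdx1 and Prdx5 were lower in litter 3, Prdx1 was higher in litter 1, and Prdx2 and Prdx6 were higher in litter 4. Prdx1 (chr4:116685544-116700822), a cytosolic enzyme, had 256 and 244 CPM in litter 1, 230 and 207 in litter 2, 201 and 199 in litter 3 and 251 and 208 in litter 4. Litter 3 was below all other libraries (log2 -0.21, SE 0.06, adjusted p = 0.0258), and litter 1 was higher but overlapped litter 4 (log2 0.21, SE 0.06, adjusted p = 0.0390, both by edgeR's quasi-likelihood test). Without the female of litter 1 or the male of litter 3 the litter 3 call was lost, at up to 0.317 without that male (log2 -0.14), and 6 of 8 such fits lost the litter 1 call, at up to 0.421.

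Prdx5 (chr19:6906697-6910106, minus strand) had 165 and 178 CPM in litter 3 against 186 to 204 elsewhere, with no overlap (log2 -0.19, SE 0.06, adjusted p = 0.0221), and 19.1% of its exon bases overlap Trmt112 on the opposite strand. It did not pass the litter test (adjusted p = 0.0725). Prdx2 (chr8:84969587-84974834), with the values given above, was 1.16-fold higher in litter 4, above all other libraries (log2 0.22, SE 0.05, adjusted p = 0.0272 by edgeR's quasi-likelihood test). Prdx2 is abundant in red cells, and the erythroid sum was 122 and 220 CPM in litter 4 against 98.9 to 535 CPM elsewhere. In litter 4, 7 of 11 fibroblast markers were higher, as were 7 of 14 cardiomyocyte markers with 2 lower, and the cardiomyocyte sum was 96024 CPM in the male and 108629 CPM in the female. The part of these cells was not tested. Prdx6 (chr1:161240112-161251219, minus strand), which also has phospholipase activity, had 128 and 127 CPM in litter 1, 119 and 126 in litter 2, 130 and 141 in litter 3 and 143 and 152 in litter 4, with litter 4 just above the rest (log2 0.20, SE 0.06, adjusted p = 0.0447). Scaling by library size alone ended the calls in litter 3 of Prdx1 (adjusted p = 0.0573) and Prdx5 (0.0621) and of Prdx2 and Prdx6 in litter 4 (0.117 and 0.187). The fits without a library ended those of Prdx5, Prdx2 and Prdx6 in 4, 5 and 8 of 8, at up to 0.184, 0.129 and 0.217. DESeq2 size factors and no low-count filter also ended the Prdx6 call in litter 4. Its adjusted p was then 0.0535 and 0.0543 by edgeR's quasi-likelihood test. Prdx4, the form of the endoplasmic reticulum, ran from 23.1 to 34.0 CPM with a litter adjusted p of 0.524.

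Thioredoxins and their reductases pass electrons to these enzymes, and glutaredoxins reduce disulfides with glutathione (Glrx) or handle iron-sulphur clusters (Glrx3 and Glrx5). Of these 7 genes only Txn2, the mitochondrial thioredoxin (chr15:77915047-77929006, minus strand), passed the litter test. It had 180 and 188 CPM in litter 1, 176 and 183 in litter 2, 164 and 162 in litter 3 and 193 and 198 in litter 4, with litter 3 below and litter 4 above the other libraries. Litter 3 was at 0.876 of the others (log2 -0.19, SE 0.06, adjusted p = 0.0238 by edgeR's quasi-likelihood test), and the call was lost under library size alone (0.0699) and in 4 of 8 fits without a library. The litter test call of Txn2 was lost with DESeq2 size factors, library size alone and no low-count filter. Its adjusted p there was 0.0579, 0.201 and 0.0775 by edgeR's quasi-likelihood test. DESeq2 itself did not call it either. Txn1, the cytosolic thioredoxin, ran from 63.5 to 80.8 CPM. Txnrd1 and Txnrd2, the reductases of cytosol and mitochondria, ran from 41.2 to 53.0 and from 24.3 to 30.6. Glrx, Glrx3 and Glrx5 ran from 37.1 to 46.3, 79.0 to 106 and 63.7 to 82.2 CPM. The litter adjusted p-values of these 6 genes ran from 0.0922 to 0.446. Gss ran from 20.2 to 24.4 CPM and Gsr, which returns oxidised glutathione to its reduced form, from 20.8 to 28.7, and neither passed. Hmox2 had 49.5 and 49.6 CPM in litter 3 against 55.1 to 58.0 elsewhere (log2 -0.19, SE 0.06, adjusted p = 0.0380), a call lost under library size alone (0.0984) and in 7 of 8 fits without a library, where the log2 stayed between -0.20 and -0.19. Its litter test had an adjusted p of 0.115.

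How many of these genes differed by litter depended on single libraries. Without each library in turn, the litter test called 3 to 12 of them while calling 21.4% to 29.6% of all genes. It called 3 without the male of litter 1 and 4 without its female, and 7 without either animal of litter 3. Without litter 3 altogether it called Sod1, Gpx3 and Gstm1, 3 genes, beside 13.7% of 13899 tested genes. Gstm1, Mgst1 and Sod1 kept the litter call in all 8 of the fits without a library, Gpx3 in 7, Gsta4, Gpx4 and Prdx1 in 5, Cat and Mgst3 in 2, Prdx2 in 1, and Prdx6 and Txn2 in none. The other settings, which include other scalings, filters, DESeq2 and no litter 3, made 9 further fits. Gstm1 and Sod1 kept the call in all 9, Mgst1, Gsta4 and Gpx4 in 8, and Gpx3, Prdx1 and Cat in 7. Prdx2 kept it in 6, Mgst3 in 5, and Prdx6 and Txn2 in 2. At equal depth, after thinning counts to the total of the shallowest library, the calls of Sod2 and Mgst1 in litter 1 and of Gpx8, Srxn1, Gclm and Hmox2 in litter 3 were lost, as were the litter test calls of Mgst3 and Txn2, at adjusted p-values of 0.0632 to 0.0812. The differences themselves stayed near those at full depth for Sod2 (log2 0.17 against 0.18) and Hmox2 (-0.17 against -0.19), as did the log2 ranges of Mgst3 (0.26 against 0.27) and Txn2 (0.25 against 0.26). They were smaller for Mgst1 (log2 -0.39 against -0.46), Gpx8 (-0.25 against -0.28), Srxn1 (-0.55 against -0.64) and Gclm (0.24 against 0.31). The 2 animals of each litter can be set against each other as well: 19 of the 37 genes (51.4%) had their highest level in the same litter in both sexes, beside 51.4% of all tested genes, and 23 (62.2%) their lowest, beside 51.3%.

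Sex, the other labelled difference, gave no call among the antioxidant genes. In edgeR's quasi-likelihood test of 4 males against 4 females without a litter term, none of the 37 passed an adjusted p of 0.05, beside 0.0436% of all tested genes, and none had an unadjusted p under 0.05. With the litter as a replicate block, which pairs littermates, none passed, beside 0.211%, and 5 had an unadjusted p under 0.05: Gpx3, Prdx4, Glrx3 and Prdx1 with higher and Gstp1 with lower levels in males. Of all 13771 tested genes, 1592 were under that unadjusted threshold with the block, a share close to that of these genes. By DESeq2 without the block none passed. In the blocked fit 6 of 11 fibroblast markers were higher and 1 of 11 endothelial markers was lower in males, with summed fibroblast levels of 66.6 to 285 CPM in males and 45.4 to 189 CPM in females, and their part in these differences was not tested. Males were higher for 22 of the 37 genes, with a median log2 difference of 0.01.

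Glrx3 (chr7:137437614-137468594), a glutaredoxin of iron-sulphur metabolism, was the only one of these genes in which the sexes did not overlap, and is named after its values were seen. It had 93.9, 94.8, 93.1 and 106 CPM in the males of litters 1 to 4 and 91.1, 79.0, 92.0 and 88.3 CPM in the females. The lowest male was thus 93.1 and the highest female 92.0 CPM, and 2.07% of all tested genes had sexes that did not overlap. The log2 difference was 0.15 (SE 0.06, adjusted p = 0.385 by edgeR's quasi-likelihood test with the block), with the male higher in 4 of 4 litters. Gpx3 had the largest difference between males (80.0 ± 26.1 CPM, SD, n = 4) and females (57.4 ± 20.5 CPM), with a log2 of 0.48, an SE of 0.16 and an adjusted p of 0.305 with the block, and the male was higher in 3 of 4 litters. Prdx4, an X-linked gene, averaged 30.1 ± 3.73 CPM over males and 25.8 ± 2.20 CPM over females (SD, n = 4) (log2 0.22, SE 0.09, adjusted p = 0.383 with the block), again with the male higher in 3 of 4 litters.

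**Figure D4:**
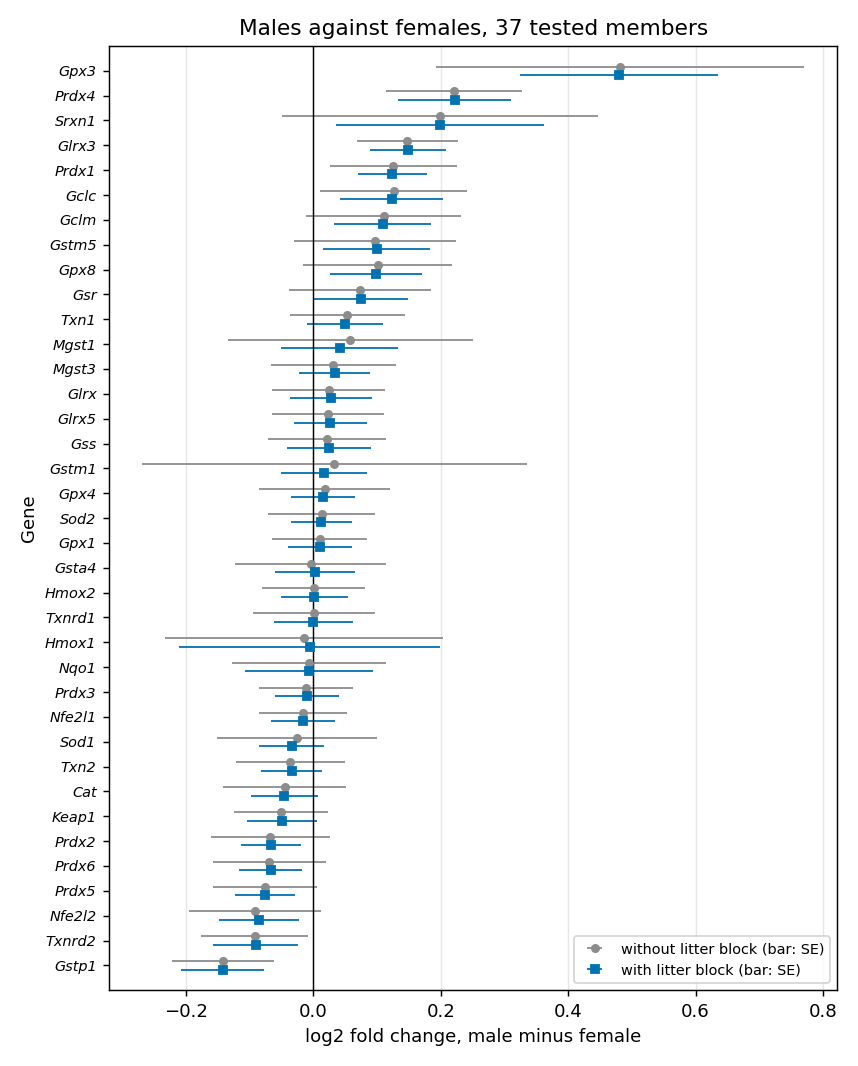
Log2 fold change of males minus females for the 37 tested genes, without (grey circles) and with (blue squares) the litter as a block; bars are SE. Gpx3 lies farthest from 0 at 0.48 with the block, Gstp1 is the lowest at -0.14, and no gene passed an adjusted p of 0.05 in either fit.

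Lists of other genes of the same pathways were read beside the background of 32.1% for the litter test. Counts of higher and lower genes come from the separate comparisons of single litters and cover all tested genes of a list. Over all tested genes, the shares higher and lower were 7.86% and 5.41% in litter 1 and 3.3% and 0.879% in litter 2. They were 13.6% and 14.8% in litter 3 and 4.71% and 5.8% in litter 4. Of 17 partners and regulators of Nrf2, 16 were tested and 7 passed. Of the 16, 4 were higher and 1 was lower in litter 3, and 3 were lower in litter 4. In litter 1, 1 was lower, and in litter 2, 1 was higher. The named genes are Maff, a small Maf protein (litter 3 against the others log2 1.04, SE 0.22, adjusted p = 0.00508), Bach2, a repressor at Maf sites (log2 0.58, SE 0.18, adjusted p = 0.0302) and Sesn1, a stress-response sestrin (log2 0.46, SE 0.11, adjusted p = 0.00786, all by edgeR's quasi-likelihood test). Of 23 other genes listed as Nrf2 targets, 20 were tested and 10 passed the litter test. Of the 20, 7 were higher and 5 lower in litter 3, and 3 were higher and 4 lower in litter 1. In litters 2 and 4, 1 was lower in each. Those that passed included Txnip, an inhibitor of thioredoxin, with 1391 and 1304 CPM in litter 3 against 420 to 759 CPM elsewhere (log2 1.14, SE 0.12, adjusted p = 4.28e-05), Aox1, an aldehyde oxidase (log2 1.24, SE 0.13, adjusted p = 5.4e-05) and Abcc4, an exporter (log2 -0.72, SE 0.22, adjusted p = 0.0299). The part of Nrf2 in them was not tested. Fth1, which encodes the ferritin heavy chain and is on that list, is listed at 0 in all 8 libraries. How reads were assigned to genes is not given in the sources used here, so an entry at 0 need not mean that no RNA was present.

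Of 15 genes of NADPH supply, all tested, 9 passed the litter test, with 2 higher and 4 lower in litter 3 and 4 higher in litter 1. Mthfd2, a mitochondrial folate enzyme, had a log2 of -1.21 in litter 3 (SE 0.24, adjusted p = 0.00341) and of 1.18 in litter 1 (SE 0.19, adjusted p = 0.0022), from low levels of 1.43 to 5.70 CPM. Aldh1l1, a cytosolic folate enzyme, was higher in litter 3 (log2 0.90, SE 0.18, adjusted p = 0.00317), and Me2, a mitochondrial malic enzyme, was higher in litter 1 (log2 0.59, SE 0.13, adjusted p = 0.0107, all by edgeR's quasi-likelihood test). Nnt, the mitochondrial transhydrogenase in which C57BL6/J mice carry a known deletion, had 395 and 409 CPM in litter 1, 363 and 376 in litter 2, 346 and 369 in litter 3 and 333 and 343 in litter 4, with a litter adjusted p of 0.0495. Counts over a whole gene cannot show a deletion of some exons.

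Of 27 other glutathione and thiol genes, 19 were tested and 7 passed, with 1 higher and 4 lower in litter 3 and 3 higher in litter 4. Msrb1 and Msrb3, methionine sulfoxide reductases, and Txndc12, a thioredoxin-like protein of the endoplasmic reticulum, were lower in litter 3 (log2 -0.41, -0.37 and -0.40, with adjusted p-values of 0.00243, 0.00377 and 0.00608 by edgeR's quasi-likelihood test), while Gpx2, Gpx5 and Gpx6 were listed at 0 throughout. Of 18 selenoprotein and selenium genes, all tested, 3 passed: Sepp1, the selenium carrier of plasma, was higher in litter 3 (log2 0.58, SE 0.07, adjusted p = 0.000124), Sepn1 lower (log2 -0.35, SE 0.07, adjusted p = 0.00397), and Ept1 higher in litter 1 (log2 0.40, SE 0.08, adjusted p = 0.00656). Of 20 genes that produce oxidants, 9 were tested and 2 passed. Nos3, the endothelial nitric oxide synthase, had 7.74 and 12.9 CPM in litter 2 against 1.72 to 4.44 CPM elsewhere. The endothelial markers were also higher in litter 2, 11 of 11 of them, with a sum of 112 and 209 CPM, and their part in Nos3 was not tested.

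Of 12 metallothioneins and other genes of oxidant defence, all tested, 6 passed the litter test. In litter 3, 4 were higher and 2 lower, and in litter 1, 1 was higher and 4 were lower. In litter 4, 2 were higher and 1 was lower, and in litter 2, 1 was lower. Mt2, a metal-binding protein induced by metals and glucocorticoids, had 10.5 and 11.1 CPM in litter 1, 15.4 and 15.0 in litter 2, 39.003 and 39.8 in litter 3 and 18.9 and 13.4 in litter 4. Litter 3 was above all other libraries and litter 1 below them, the order also shown by Gstm1 and Mgst1 (log2 1.51, SE 0.10, adjusted p = 1.61e-06 for litter 3 by edgeR's quasi-likelihood test). Ucp2, a mitochondrial carrier, was lower in litter 1 (log2 -0.72, SE 0.08, adjusted p = 0.000259), and Mb, myoglobin, which cardiomyocytes use to store oxygen, was lower in litter 3 (log2 -0.65, SE 0.06, adjusted p = 1.81e-05). None of the tested genes in these 8 pathway lists passed the sex test with or without the block. Among the cell lists, the litter test called 11 of 14 cardiomyocyte, 4 of 10 atrial, 10 of 11 fibroblast, 11 of 11 endothelial, 7 of 9 mural, 3 of 7 epicardial, 1 of 3 macrophage and 1 of 7 erythroid markers tested, 15 of 18 immediate-early genes and none of 2 Schwann and neural markers.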

How the data were processed

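The authors deposited 1 table of raw counts per gene symbol, with 48440 entries and 8 columns, each matching the title of 1 library, and no column was left unused. Per the labels' protocols, libraries were made from 1 µg of total RNA with a stranded total RNA kit and read as 100-base single-end reads; the labels also give the molecule as poly(A) RNA. STAR 2.7.3a and mm10 are named in the submitters' processing notes, while the counting program, the annotation and the strand setting are not given in the sources used here.

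The 39 genes and all other lists were chosen with earlier results of these data known. Genes were filtered with filterByExpr on sex and scaled with TMM in edgeR 4.0.16 (R 4.3.3), which kept 13771. The litter test took 3 coefficients beside sex, leaving 3 residual degrees of freedom, and the sex test had no litter term, leaving 6. Benjamini-Hochberg adjustment ran over all tested genes, with a threshold of 0.05, and CPM use TMM-scaled library sizes. A fold or log2 value compares a litter with the mean of the other 3, and its standard error is its size divided by the square root of F. On simulated counts for 13771 genes with 200 changed 2-fold, 100% were recovered by the litter test with 2.44% false calls, and 100% by the sex test with 2.91%. Changes under 2-fold, the size of every single-litter difference of the 37 genes, were not simulated.

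Gene models, overlaps and shared 100-base windows came from GENCODE M21 (GRCm38, the assembly named mm10), and upstream sequences from RefSeq. Values in every library are given for the 12 genes past the litter threshold, the 3 highest and 3 lowest per length and those outside the filter; other genes are described by ranges, or by library where a comparison of a litter called them. Of each pathway list, up to 3 genes past the litter threshold with the widest range were named, and Nnt. The values of 1 gene of these lists are not reported here.

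The labels pair a male with a female by litter. After removing sex means, littermates correlated across genes at 0.506, 0.503, 0.696 and 0.367 (litters 1 to 4), against -0.482 to 0.27 between animals of different litters. Animals of different litters differed by more than sampling noise. Alternatives were DESeq2 1.42.0, other scalings and filters, equal depth, no mitochondrial genes, no sex term, no litter 3, each library left out, and the litter as a block in the sex test.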

Additional observations from a re-analysis of the deposited data

Results flagged for a closer look

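In 3 of 74 groups of 4 libraries of a sex, 1 library lay far from the other 3, as measured by its gap to the nearest against the whole range; chance would give about 3.7. Sod2 had 510 CPM in the female of litter 1, against 444 to 449 CPM in the other females, and the male of that litter was high as well, at 508 CPM. Prdx3 had 163 CPM in the male of litter 2, and the other males 173 to 174 CPM, while its sister had 161 CPM. Glrx3 had 106 CPM in the male of litter 4, while the other males ranged from 93.1 to 94.8 CPM and its sister had 88.3 CPM.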

How the results depend on the processing

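With 12 genes called between litters, the count was 5 without a sex term and 3 without litter 3, and all genes went from 4427 to 1898 without litter 3. Leaving out each library in turn gave 3 to 12 genes between litters, beside 21.4% to 29.6% of all tested genes. The comparisons of single litters then gave 1 to 8 for litter 1 (7 with all libraries), 0 to 1 for litter 2 (0), 5 to 13 for litter 3 (12) and 0 to 3 for litter 4 (3). Shares over all genes are not given here for the fit without a sex term. They are also not given for the single-litter comparisons under library size alone or without a library. Without a low-count filter, litter 2 gained 1. In the sex test, the litter as a replicate block (the paired fit) raised the count over all genes from 6 to 29 and left that of the antioxidant genes at 0, which no alternative run changed. Other scalings, filters, equal depth, DESeq2 and leaving out mitochondrial genes kept the other total counts within 1.5 times, and no named value changed sign. Library size alone moved the split by direction: in litter 3 from 5 higher and 7 lower to 8 and 2, in litter 4 from 3 and 0 to 1 and 1. Fits without litter 3 test fewer litters, and those without a library have fewer residual degrees of freedom; other causes were not tested. Depth limits Hmox1 and Srxn1, and Sod3 and Slc7a11 were kept out of the tests by the low-count filter.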
